A study of Mus musculus with 35 samples.

Results

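Single control zygotes were the 10 water-injected 1-cell embryos of a series of 35 mouse RNA-seq samples, taken by their labels, and each was 1 library. All were wild-type C57BL/6NRj zygotes fertilised in vivo, from superovulated females of 3 to 4 weeks mated with stud males. They were cultured in G-1 PLUS medium, injected in the cytoplasm with nuclease-free water, freed of the zona pellucida with acidic Tyrode's solution, and frozen 5 to 6 h after the injection, which was 17 h past ovulation. Both pronuclei had been seen in every zygote chosen for injection, and no label ties a zygote to a female or a male, so zygotes of 1 litter cannot be told apart from zygotes of several. The rest of the series held zygotes injected with Kdm5b-yfp mRNA and 2C samples, which are not compared here.

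At this stage the embryo lives almost wholly on RNA that the oocyte made and stored. The growing oocyte transcribes a large store of messages, meiotic maturation and fertilisation start their deadenylation and decay, and a first weak wave of embryonic transcription, the minor genome activation, begins late in the 1-cell stage. The differences between single zygotes can therefore come from the oocyte, from decay, from new transcription or from the library, and counts alone do not separate these.

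The libraries held oocyte and zygote RNA with little from other cells. Of 10 defining zygote and oocyte genes, 9 were in the table and all 9 were found in every zygote, with a summed level of 12531 to 16717 TPM (counts per base of exon, in parts per 1000000 of a zygote's sum). The 21 cumulus and granulosa markers summed to 25.2 to 38.4 TPM, nearly all of it from Cyp19a1 (19.8 to 36.3), and Ereg, Pgr and Col1a2 were at 0 in all 10. The 12 sperm markers summed to 14.0 to 50.6 TPM, mostly Prm2 (8.50 to 45.8), with Tnp1, Tnp2, Smcp and Spata18 at 0. Blood markers reached 0.716 TPM, oviduct markers 5.23 and keratinocyte markers 5.16 at most. Fragments counted on genes ran from 12597267 to 17797581 per zygote. The kit amplifies by PCR and adds no molecular identifiers, so counting error below covers reads and not molecules.

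The zygotes shared most of what they expressed. Of 24480 genes in the table, 11813 had at least 1 count in all 10 zygotes, 6195 in 2 to 9, 1486 in exactly 1, and 4986 in none. The genes found in some zygotes only held 0.0956% to 0.221% of a zygote's counts. Spearman's rho between 2 zygotes, across the 10109 genes with enough counts to test, lay between 0.973 and 0.988 over the 45 pairs. Zygote 3 stood lowest in this respect, with a median rho of 0.979, and zygote 9 highest at 0.985.

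The number of genes detected differed by more than depth. It ran from 13870 in zygote 10 to 16174 in zygote 1. Brought to the depth of the smallest library by rarefaction, the expected number ran from 13767 to 15919, with 4 zygotes (3, 4, 8 and 10) between 13767 and 14407 and 6 between 15377 and 15919. The gap of 970.1 genes between these ranges was wider than the next, 558 genes. Genes with 10 counts or more were closer, from 11733 to 12666, and those with 1 to 9 counts ran from 2137 in zygote 10 to 3913 in zygote 2. Of the 4 zygotes with fewest genes, zygotes 3, 4 and 10 had 16415202, 15787635 and 16005724 counts, above the median, and zygote 8 had 13708859, the second fewest. Zygote 9, with the fewest counts, had 15443 genes.

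**Figure D1:**
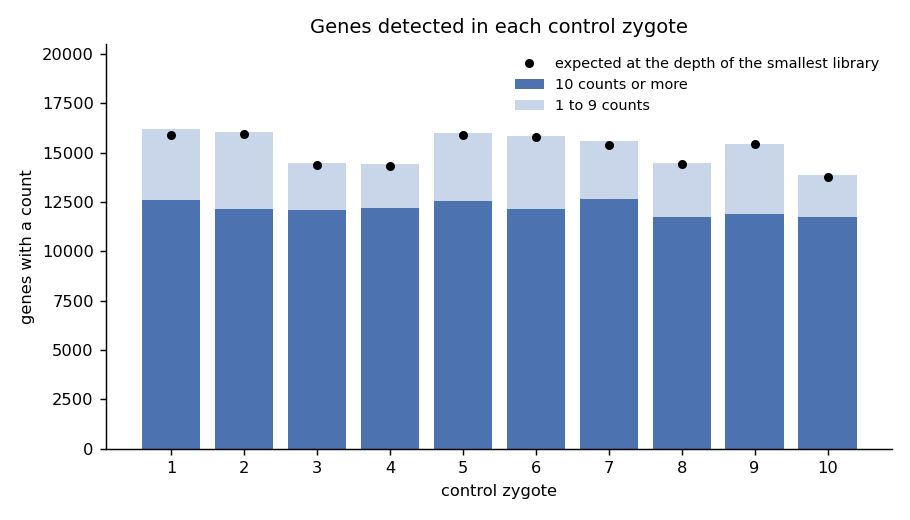
Genes with a count in each of the 10 control zygotes (y axis, number of genes; x axis, zygote), split into genes with 10 counts or more and with 1 to 9 counts, with black points for the number expected at the depth of the smallest library. The points of zygotes 3, 4, 8 and 10 lie at or below 14407 and those of the other 6 at or above 15377.

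The most abundant transcripts were maternal factors, small structured RNAs and mitochondrial messages. The 10 genes with the highest TPM took 6.24% to 7.42% of all TPM in a zygote, the top 100 took 21.1% to 23.2% and the top 1000 took 57.96% to 59.4%. A level of at least 1 TPM was reached by 11341 to 12196 genes per zygote, 9845 of them in all 10, and 1000 TPM by 94 to 111 genes, 76 of them in all 10. The top 20 of single zygotes together held 25 genes, of which 13 were shared by all zygotes.

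Zbed3, a member of the subcortical maternal complex of oocytes, ranked first in every zygote with a median of 14430 TPM (12702 to 16691). Btg4, the adaptor that brings the CCR4-NOT deadenylase to maternal mRNAs, had a median of 5543 TPM and lay within 5345 to 5952 in all 10. Dppa3, which protects the maternal genome from loss of methylation, stood at 4722 TPM (4176 to 5274). Zfp57, a zinc finger protein that keeps imprints methylated, stood at 3931 TPM (3767 to 4333). Spin1, a reader of histone methylation, had 3074 TPM, and Bcl2l10, of the Bcl-2 family, had 3410 TPM. Npm2, the histone chaperone nucleoplasmin, was wider at 2368 to 3865 TPM with a median of 2934. The linker histone gene Hist1h1a (median 4311 TPM) ran from 3230 in zygote 7 to 5325 in zygote 1.

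Non-coding and metabolic genes made up much of the rest. Rn7sk, the RNA that holds the elongation factor P-TEFb inactive, ranked second in every zygote, at a median of 12059 TPM (9757 to 15024). Rpph1, the RNA of RNase P, had a median of 3685 TPM. Both are short, and TPM divides by length, so a given number of reads weighs more than in a long gene. Ranked by CPM (counts in parts per 1000000, not divided by length) only 10 of these 20 genes stay in the top 20. Mphosph6, which works with the nuclear exosome, had a median of 6114 TPM, and Ldhb, a subunit of lactate dehydrogenase, 3424. Trim61 had 3374 TPM, and the less studied E330034G19Rik, D6Ertd527e, C86187 and E330021D16Rik had 4766, 3982, 3290 and 3214.

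The mitochondrial genome gave 3 of the top 20. CYTB had a median of 7048 TPM (4448 to 8546), ND1 had 3625 (1686 to 4418) and COX1 had 3263 (1887 to 3903), with zygote 10 lowest for each. ATP6, COX2 and COX3 were at medians of 12.2, 5.57 and 2.33 TPM, although the mitochondrial strand is transcribed as 1 precursor. Mouse chromosome 1 carries a near-identical nuclear copy of that stretch. The counting settings that the paper lists do not add reads that fit several places, and the loss here was not tested. The levels of these genes are therefore uncertain.

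**Figure D2:**
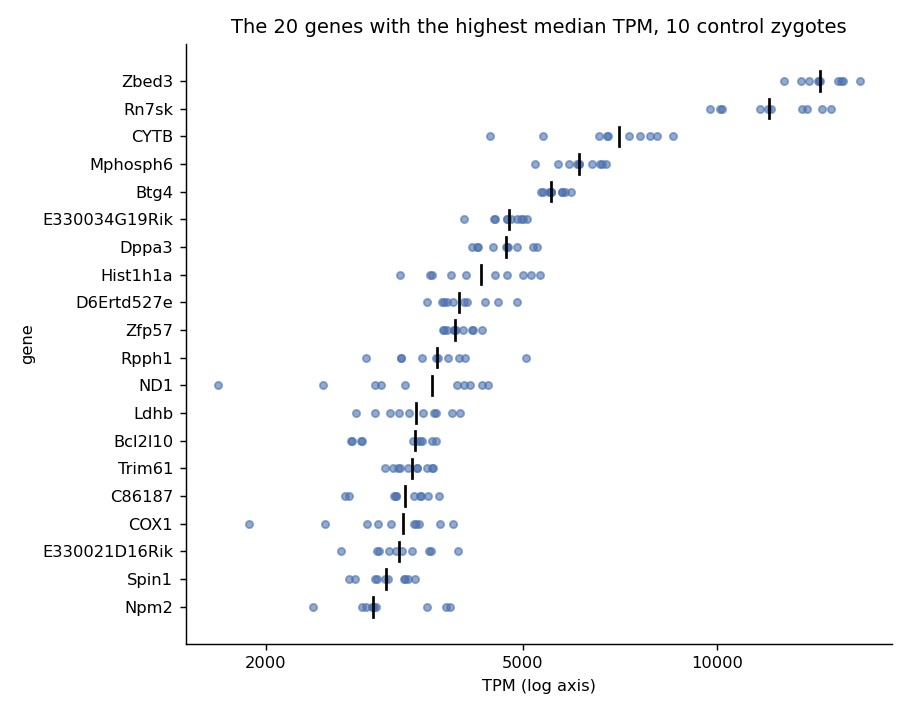
The 20 genes with the highest median TPM (y axis), with the TPM of each of the 10 control zygotes as points on a log axis and the median as a bar. Btg4 and Zfp57 show tight clusters of points, while ND1 spreads from 1686 to 4418 TPM.

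Spread between zygotes was measured as the biological coefficient of variation, the SD between zygotes relative to the mean that remains after counting error is taken off. Counting error alone could not account for it in 10051 of 10109 genes, or 99.4% (chi-square goodness of fit to a Poisson model, Benjamini-Hochberg adjusted p under 0.05). The median gene varied by 15.8%. In the lowest of 10 equal bins of genes by level, with mean CPM of 1.00 to 3.63, the median was 36.7%, where counting error was 15.8%. In the highest bin it was 7.73%, where counting error was 1.25%. A gene is therefore judged against the trend of genes at its level, by the ratio of its own dispersion (the square of that variation) to the trend.

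Of the 10109 genes, 228 (2.26%) varied more than the trend at their level (edgeR negative binomial goodness of fit, Benjamini-Hochberg adjusted p under 0.05). Their median variation was 35.0%, their median ratio to the trend 4.32, and their mean levels ran from 2.08 to 1858 CPM. They were highest most often in zygotes 10 and 3, with 43 and 40 genes, and lowest most often in zygotes 3 and 5, with 37 each. The count was 166 without zygote 3, the lowest of the 10 counts with 1 zygote left out, and 161 with the inferred index strip in the fit.

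**Figure D3:**
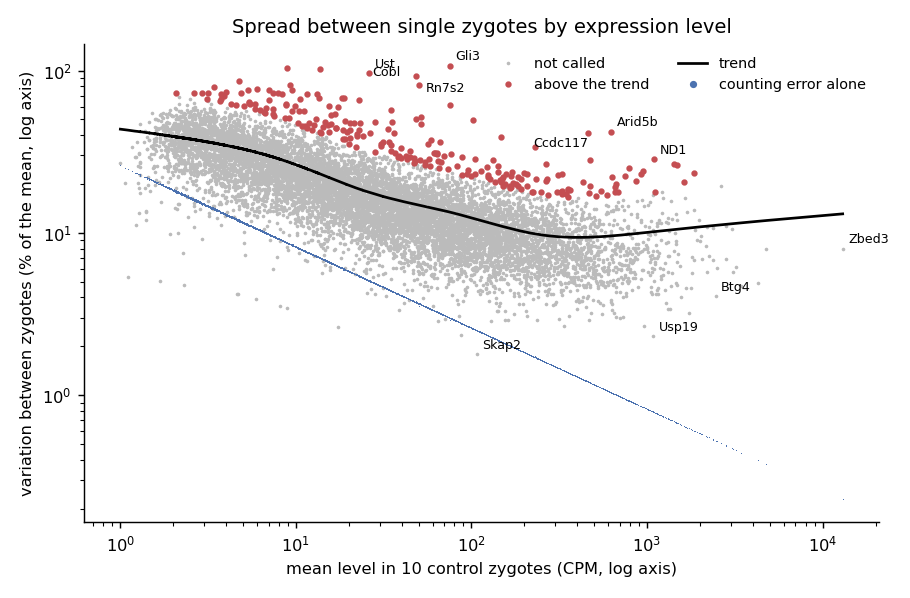
Variation between the 10 control zygotes after removal of counting error (y axis, percent of the mean, log axis) against mean CPM (x axis, log axis), 1 point per gene tested, with the 228 genes above the trend in red, the trend as a black line and counting error alone in blue. Gli3, Cobl and Ust lie near 100%, and Usp19 and Skap2 lie near 2%.

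The gene farthest above the trend was Gli3 (chr13:15463723-15730026 of GRCm38), a transcription factor of Hedgehog signalling. Its level was 1.42 CPM in zygote 8, 58.5 at the median and 263 in zygote 5. The levels were scattered: zygotes 4, 6, 8 and 9 had 7.58, 3.24, 1.42 and 6.57 CPM and the other 6 had 51.1 to 263. Its ratio to the trend sat at the upper limit of the estimate, 64 (adjusted p = 5.1e-188, edgeR goodness of fit), and stayed there with any zygote left out. Cobl (chr11:12236676-12464960), which nucleates actin filaments, ran from 4.11 CPM in zygote 8 to 134 in zygote 6 with a median of 32.0, 38.4 times the trend.

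Ust (chr10:8204753-8518825), a sulfotransferase of glycosaminoglycans, was low in zygotes 5, 6, 7 and 8, at 2.36 to 5.98 CPM, and at 27.6 to 70.1 in the other 6. These levels do not overlap, and the 4 low zygotes are those whose index numbers fall in 1 inferred strip. Gm19757 ran from 12.0 CPM in zygote 8 to 121 in zygote 5. Msrb3, which repairs oxidised methionine, was 193.5 and 194.6 CPM in zygotes 5 and 7 and 49.6 to 112.5 in the other 8. Ccdc117 was 213 CPM in zygote 5 and 945 in zygote 10, with a median of 429.

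A few genes owed their place to 1 zygote. Rn7s2, a gene for the 7SL RNA of the signal recognition particle, was 242 CPM in zygote 1 and 19.9 to 40.5 in the other 9. Without zygote 1 its ratio fell from 30.6 to 1.41 (adjusted p = 0.9999, edgeR goodness of fit). Arid5b (chr10:68095593-68278726), a DNA-binding protein, was 139.6 CPM in zygote 9 and 503 to 801 in the other 9, and without zygote 9 its ratio fell from 19.3 to 1.81 (adjusted p = 0.724, edgeR goodness of fit). Coro2b, an actin-binding coronin, was also lowest in zygote 9, at 46.8 CPM against 107 to 239, and kept its call at a ratio of 4.39 without it.

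The remaining genes of the 12 with the smallest p were Hist1h4d, Basp1 and Sept14. Hist1h4d, a replication-dependent histone H4 gene, ran from 1.29 CPM in zygote 3 to 48.1 in zygote 9. Basp1 ran from 1.41 CPM in zygote 3 to 38.9 in zygote 10, and Sept14, a septin, from 23.3 in zygote 2 to 125 in zygote 8. Of the 12, the 10 other than Rn7s2 and Arid5b kept their calls with any single zygote left out. Rn7s2 and Hist1h4d have near-identical copies in the genome, so their own counts are uncertain.

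The opposite end held genes that barely differed between zygotes. Skap2, a Src kinase-associated adaptor, lay between 101.8 and 111 CPM in all 10, with a ratio to the trend of 0.022. Usp19, a deubiquitinase, lay between 1031 and 1124 CPM, and Dcaf8, a substrate receptor of a ubiquitin ligase, between 917 and 989. Srf, the serum response factor, lay between 146.8 and 163 CPM and Nrf1, a transcription factor of nuclear respiratory genes, between 149.5 and 170.6. Mff, Idh3a and Fam104a were the other three of the 8 genes with the least spread relative to the trend among those above 100 CPM. Of the most abundant genes, Btg4 (ratio 0.13), Zfp57 (0.18), Trim61 (0.29) and Zbed3 (0.37) were among those below the trend. ND1 (7.86) and COX1 (3.72) were the only 2 of the 20 called above it. The median ratio over all genes tested was 0.76, so lying below the trend was common, and low spread was not tested.

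**Figure D4:**
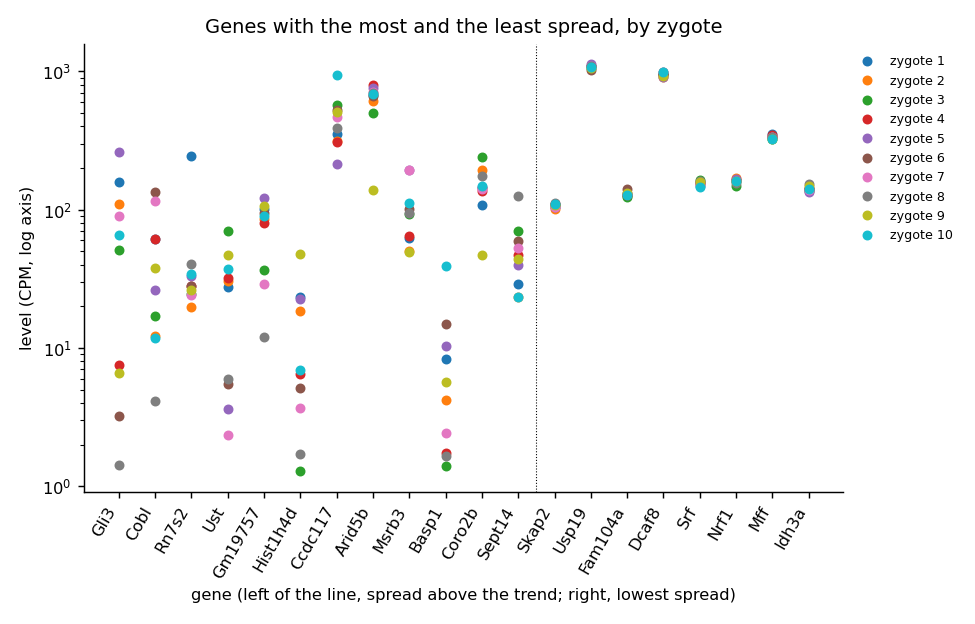
CPM (y axis, log axis) of each control zygote, 1 colour per zygote, for the 12 genes with the strongest evidence of spread above the trend (left of the dotted line) and the 8 with the least spread (right). Gli3 spans 1.42 to 263 CPM, whereas the points of Skap2 coincide at 101.8 to 111.

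Zygote 3 carried a set of private levels. Genes more than 2-fold above all the other 9 zygotes numbered 13 in zygote 3, 7 in zygote 10 and 0 to 3 in the rest, and those more than 2-fold below all others 37 in zygote 3, 27 in zygote 10, 23 in zygote 4 and 0 to 15 in the rest. Among the 13 were Tek, the angiopoietin receptor (98.2 CPM against 20.6 to 38.0), Trp73, a member of the p53 family (80.6 against 16.6 to 35.2), Slc26a5 (48.2 against 5.47 to 15.3) and Pik3r2, a regulatory subunit of PI3-kinase (20.6 against 1.27 to 5.94). Mdm2, the ubiquitin ligase of p53 and itself a p53 target, was 502 CPM in zygote 3 and 206 to 261 in the other 9, 7.61 times the trend. Btg2, another p53 target, was 45.4 CPM in zygote 3 and 10.7 to 25.8 in the others. Without zygote 3 none of Mdm2, Btg2, Tek, Trp73, Slc26a5 and Pik3r2 was called, with ratios from 0.49 to 1.92.

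Since these genes were noticed first, a list of 25 known p53 targets was drawn up after their values had been seen, and it gets no test. Of the 16 members with enough counts, 8 were highest in zygote 3 (Mdm2, Ccng1, Btg2, Aen, Sesn2, Trp73, Gtse1 and Ddb2), where 13.9% of all genes tested were highest in zygote 3. Next came zygote 8 with 3. Mdm2, Btg2 and Trp73 count among the 8 but were noticed before the list was drawn up, so the 13.9% is not a like comparison. Of the 8, only these were called above the trend, and none of them without zygote 3. Rrm2b was lowest in zygote 3 (374 CPM against 395 to 432 in the others). Trp53inp1, Bax, Zmat3, Plk2, Xpc, Polk and Ei24 were neither highest nor lowest there. Of the members with too few counts, Pmaip1 (5.39 CPM against 0.267 to 4.51) and Fas (0.796 against 0 to 0.735) were highest in zygote 3. Cdkn1a (1.59 CPM there against 0.0632 to 2.27 elsewhere), Phlda3, Eda2r, Bbc3, Tnfrsf10b, Gdf15 and Perp were not.

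Gene groups differed in how often their members left the trend, against 2.26% of all genes tested. Of 34 tested oocyte factors, 4 were called: Padi6, of the cytoplasmic lattices (668 to 1453 TPM), Nlrp14 (567 to 1065), Tle6, of the subcortical maternal complex (335 to 738), and Gdf9, the oocyte growth factor (911 to 1399). Nlrp14 and Tle6 were called with any zygote left out, Padi6 was not called without zygote 3 (ratio 3.20), and Gdf9 was not called without zygotes 1, 3, 7 or 8 (3.02 without zygote 7). The summed level of the list moved little, from 54006 to 59600 TPM. The deadenylation and decay list (1 of 19 called, Dcp1a) and the cell cycle list (1 of 26) were as steady in sum, with highest-to-lowest ratios of 1.08 each, and the nuclear respiratory chain had 2 of 73.

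Mitochondrial genes and histones were at the other end. Of 8 tested genes of the mitochondrial genome 6 were called, the exceptions being CYTB (ratio 2.98, adjusted p = 0.061, edgeR goodness of fit) and the low ATP6. Their summed level ran from 13370 to 25366 TPM, 1.90-fold. ND1 was called with any zygote left out, and COX1 was not called without zygote 10, where its ratio was 1.97. Of 31 tested replication-dependent histones 10 were called, among them Hist4h4 (433 to 1011 TPM), Hist1h2aa (452 to 926) and Hist1h4c (410 to 798). Many of these genes are near-identical, so single members are uncertain. Hist4h4 was not called without zygote 4 (ratio 1.99) and Hist1h2aa not without zygotes 4, 7 or 9. Of 73 ribosomal protein genes 4 were called, among them Rpl19, Rpl26 and Rpl21, and of 10 heat shock genes 3 (Hsp90ab1, Hspa8 and Hspa1b). Each of these 6 named genes lost its call without at least 1 zygote, with Hspa8 at the lowest ratio, 1.62 without zygote 2. None of the 3 tested immediate early genes were called, and their list summed to 111 to 165 TPM.

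Genes known from the 2-cell stage were mostly low. Of 34 in the table, 10 had enough counts and 3 were called. Usp17lc ran from 1.22 to 32.9 TPM, Zscan4d from 2.36 to 14.2 and Hspa1b, a heat shock gene also transcribed in minor activation, from 11.8 to 50.6. Usp17lc was called with any zygote left out, Hspa1b was not called without zygote 2 (ratio 2.94), and Zscan4d not without zygotes 2, 8, 9 or 10. Obox5 (median 2112 TPM) and Sp110 (1010) were high in every zygote. Zscan4c had a median of 1.95 TPM (0.0758 to 5.86) and Zfp352 2.31 (0 to 10.5). Members of the Usp17l and Zscan4 families are near-identical copies. The counting settings that the paper lists do not add reads that fit several places, so their counts may be too low.

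The main axes of difference did not belong to 1 gene group. Over the genes tested the first 3 principal components of log2 CPM held 19.3%, 14.4% and 13.4% of the variance. The first set zygote 3 (score 28.7) and zygote 10 (16.4) against zygotes 5 (-20.9) and 7 (-15.3). Its scores were above 0 in zygotes 3, 4, 8 and 10, the 4 with fewest genes detected (6.86 to 28.7), and below 0 in the other 6 (-20.9 to -3.82). The genes weighing most for the high end were Ust, Cfap57, Pik3r2, Gtpbp3, Ccdc113 and 1700016H13Rik, and for the low end Hist1h4d, Cacng7, Mak16, Usp17lc, Zfp41 and Elk3. Pik3r2 was 20.6 CPM in zygote 3 and Elk3 1.10, where the other zygotes had 1.27 to 5.94 and 4.56 to 25.5. The second component held zygote 4 (32.4) apart from the other 9 (-10.5 to 8.28), with Zfp521, Dgkg, Dpp7 and Pkib at its high end and Gli3, Basp1, Nr1i2 and Fam189a1 at its low end. Zfp521 was 18.7 CPM in zygote 4 and 2.59 to 13.1 in the rest.

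Co-variation is described by Pearson's r of log2 CPM over the 10 zygotes. Levels of both members of a pair come from the same libraries, with their depth and index strip. Over all pairs of the 7295 genes with a mean of at least 10 CPM the median r was -0.00, 90% of pairs lay between -0.60 and 0.61, and 0.0621% exceeded 0.9, so a single high r says little. Ccdc117 went with Tmcc3 (r = 0.97, and 0.90 without the 2 zygotes farthest from the median), Senp8 (0.94, 0.88) and Bag1 (0.92, 0.72). Msrb3 went with Kif1b, a kinesin (0.96, 0.90), and Gli3 with Agbl5, a deglutamylase of tubulin (0.91, 0.93), Bzw1 (0.87, 0.88) and Rack1 (0.87, 0.90). The median gene had an r above 0.9 with 2 genes. Ccdc117 had 8 such genes, Coro2b 3, Msrb3 and Gli3 1 each, and Arid5b 0.

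The partners of Arid5b rested on zygote 9. Its r with Snph, Zfp652 and Zdhhc20 was 0.90, 0.86 and 0.86, and 0.13, 0.02 and 0.11 without the 2 farthest zygotes. Coro2b, also lowest in zygote 9, went with Zfp652 (0.94, 0.67), Snx27 (0.93, 0.64) and Ints10 (0.92, 0.71). Among the lists, the mitochondrial genes moved most together (median pairwise r of 0.79). Histones (0.40), ribosomal protein genes (0.38), heat shock genes (0.35) and the nuclear respiratory chain (0.30) followed. Oocyte factors (0.08), decay factors (0.01), cell cycle genes (-0.02) and 2-cell genes (-0.07) had medians near that of all pairs. These list medians were not computed again with zygotes left out, and zygote 10 was lowest for ND1, ND2, ND5, CYTB and COX1.

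Y-linked counts and a Y-linked repeat fell into the same pattern. The 49 genes of the Y chromosome had 0 counts in zygotes 1, 7, 9 and 10, where a count of 0 allows up to 3, and 12, 29, 80, 68, 48 and 60 in zygotes 2, 3, 4, 5, 6 and 8. Uty, with up to 36 counts, Ddx3y, Kdm5d and Eif2s3y held 3 to 50 of these counts together. MURVY-int, the internal part of a retroviral repeat that is amplified on the Y chromosome, had 15.2 to 78.9 estimated counts in the 4 zygotes without Y counts and 158 to 261 in the other 6, with no overlap. It was one of the 8 repeats with the strongest evidence of spread (ratio 8.74, adjusted p = 7.6e-10, edgeR goodness of fit). The labels do not give the sex of the zygotes, and these counts are set side by side only.

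Repeats were counted separately but from the same reads, as estimated counts over all genomic instances of each RepeatMasker name. A read can therefore enter both a gene and a repeat, and this overlap was not tested. The repeats amounted to 0.309 to 0.424 estimated repeat counts per gene count, with zygote 5 highest. The largest class was MaLR elements (38.2% to 44.1% of repeat counts), LTR retrotransposons whose MT families drive or end many oocyte transcripts. MTA_Mm and MTA_Mm-int alone took 31.6% to 37.4%. Simple repeats took 14.0% to 18.9%, L1 elements 3.52% to 4.25%, ERVL elements 2.49% to 4.05%, and ERVK and ERV1 elements 1.80% to 2.65%. The 10 most abundant repeats by mean count were MTA_Mm-int, MTA_Mm, LSU-rRNA_Hsa, 7SLRNA, MT-int, GA-rich, A-rich, MT2B1, MMSAT4 and SSU-rRNA_Hsa. MTA_Mm-int ran from 213487 to 319909 repeat CPM (parts per 1000000 of the repeat counts), 12.5% variation, and MMSAT4 from 11442 to 13154.5, 4.87%.

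Of 2067 repeats tested, 47 (2.27%) varied more than the trend at their level (edgeR goodness of fit on rounded estimated counts, Benjamini-Hochberg adjusted p under 0.05). The largest ratio was that of MERVL-int, the internal part of the murine endogenous retrovirus whose transcription marks the 2-cell stage. It had 273 repeat CPM in zygote 10, 2473 at the median and 13857 in zygote 5, and 1117 to 8322 in the other 8. In estimated counts this was 1327 in zygote 10 and 81299 in zygote 5, or 0.0259% to 1.28% of repeat counts. Its ratio to the trend was 22.0 (adjusted p = 5.5e-41) and stayed at 17.8 or more with any zygote left out.

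The relatives of MERVL-int moved with it. MERVL_2A-int ran from 60.7 in zygote 10 to 632 in zygote 5 and MT2_Mm, the LTR of MERVL, from 508 to 1688 repeat CPM in the same 2 zygotes. Over the 10 zygotes MERVL-int had an r of 0.97 with MERVL_2A-int (0.93 without the 2 farthest), 0.96 with MuRRS-int (0.91) and 0.96 with L1VL1 (0.87). Whether related repeat names took their estimated counts from the same reads was not tested. Among genes its closest partners were Ipmk, an inositol phosphate kinase (0.96, 0.94), Zfp207 (0.95, 0.87) and Pced1b (0.95, 0.88). Its r was above 0.9 for 27 genes, and for 47 genes it was as strong in the negative direction. The median gene had 2 of each, and the highest numbers for any gene were 82 and 87.

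Structural RNAs formed a second group. Of 19 tested tRNA names 11 were called, and of 3 rRNA names 2, SSU-rRNA_Hsa and 5S, against 2.27% of all repeats. SSU-rRNA_Hsa was highest in zygotes 9 and 10, at 24692 and 18821 repeat CPM, and had 5854 to 12006 in the other 8. The tRNA-Lys-AAG level was 786 and 698 in zygotes 9 and 10 and 166 to 467 in the others. The r of SSU-rRNA_Hsa was 0.94 with tRNA-Lys-AAG (0.80 without the 2 farthest), and among genes 0.95 with Mir6236 (0.90) and 0.94 with Lars2 (0.87). Whether these genes and this repeat took their counts from the same reads was not tested.

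The rest of the 47 were 10 of 120 L1 names, 8 of 171 ERVK and ERV1 names, 3 of 62 ERVL names, 7 of 1212 simple repeats and 6 others. L1MdV_I, the most abundant of the L1 names called (3063 to 8728 repeat CPM), went with L1MdA_V (0.97, 0.89) and, among genes, with Mir6236 (0.94, 0.86). IAPEz-int, the internal part of the intracisternal A particle, ran from 1293 in zygote 3 to 4522 in zygote 5. GSAT_MM, the major satellite of pericentromeric heterochromatin, ran from 22.6 in zygote 10 to 176 in zygote 5, 9.79 times the trend. Few repeats are as abundant as SSU-rRNA_Hsa or MERVL-int, so the trend there rests on few points.

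The relation with the number of genes detected was fitted for each gene as a slope, the log2 change per SD of that number, which is 814 genes over the 10 zygotes. At an adjusted p under 0.05 (edgeR quasi-likelihood test) 99 of 10109 genes (0.979%) rose and 206 (2.04%) fell, and 1868 had an unadjusted p under 0.05. Because the 10 zygotes fall into separate ranges, a slope over all of them includes the step between those ranges. Within the 6 zygotes above the gap, where the SD is 241 genes and slopes are less precise, 0 of 10630 genes were called by edgeR and 462 had an unadjusted p under 0.05. The 4 zygotes below the gap were not fitted by themselves. Slopes within the 6 are given below per 814 genes, the same unit as over all 10. With the raw number of genes with 10 counts or more in place of the number at equal depth, edgeR called 0 rising and 1 falling.

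Mitochondrial genes led the rising side. ND1, a subunit of complex I (positions 2751 to 3707 of the mitochondrial genome), was 543 CPM in zygote 10, 787 to 961 in zygotes 3, 4 and 8, and 1051 to 1410 in the other 6, with no overlap between the last 2 sets. Its slope was 0.38 ± 0.05 (SE, adjusted p = 0.0015, edgeR quasi-likelihood), and within the 6 it was 0.02 ± 0.17. Without zygote 10 the slope was 0.25 (adjusted p = 0.013, edgeR quasi-likelihood). ND5 (770 to 2091 CPM) and ND2 (523 to 1156) had slopes of 0.35 ± 0.05 and 0.32 ± 0.05, and without zygote 10 that of ND2 was 0.20. COX1 and ND4 had slopes of 0.22 ± 0.05 and 0.23 ± 0.06, but without zygote 10 these were 0.11 and 0.13 and were not called, and each lost its call for 5 of the 10 zygotes left out. ND6, the gene read from the other mitochondrial strand, did not pass, at -0.08 ± 0.07. Mitochondrial transcripts held 0.516% of counts in zygote 10 and 0.725% to 1.01% in the other 9.

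The other rising genes with the smallest p were Siah2, a ubiquitin ligase, and 7420426K07Rik. Siah2 was 385 to 476 CPM in zygotes 3, 4, 8 and 10 and 528 to 653 in the other 6, a slope of 0.23 ± 0.03. On the falling side were Hnrnpd, a binder of AU-rich messages (slope -0.25 ± 0.03), Nsrp1, a splicing regulator (-0.22 ± 0.03), Psmd4, a proteasome subunit (-0.24 ± 0.03), Nexn, which binds actin (-0.22 ± 0.03), and Golga4, a golgin (-0.24 ± 0.03). Hnrnpd was 355 to 381 CPM in the 4 zygotes with fewest genes and 234 to 300.5 in the other 6. Within the 6, the slope of Hnrnpd was -0.40 ± 0.15 (adjusted p = 0.996, edgeR quasi-likelihood), that of 7420426K07Rik 0.44 ± 0.24 (0.46 ± 0.08 over the 10) and that of Siah2 0.16 ± 0.16. All 10 of the rising and falling genes with the smallest p had the same sign within the 6 as over the 10, and none was called there. The 10 were chosen by slopes that include the same 6 zygotes, so the shared signs are not separate evidence.

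By list, against 0.979% of all genes rising and 2.04% falling, 7 of 34 oocyte factors rose, among them Bcl2l10 (0.17 ± 0.03), Oosp1, Tcl1 and Bmp15 (0.16 ± 0.03 each), and Npm2 (-0.18 ± 0.04) and Zar1l (-0.20 ± 0.04) fell. Of 73 ribosomal protein genes 0 rose and 5 fell, with Rpl19 (-0.30 ± 0.06) the most abundant of these. Of 31 histones 2 rose, Hist1h3f (0.26 ± 0.05) and Hist1h4c (0.28 ± 0.06), the latter in only 5 of the 10 fits with a zygote left out. Npm2 and Rpl19 were not called without zygote 10, at -0.15 and -0.25. Of the 2-cell list Sp110 fell, at -0.18 ± 0.03. The count of rising genes ran from 47 to 116 with 1 zygote left out, 47 without zygote 5 and 48 without zygote 1, and that of falling genes from 106 to 215, 106 without zygote 1 and 110 without zygote 10.

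Repeats followed the number of genes detected more often than genes did. Of 2067, 147 (7.11%) rose and 214 (10.4%) fell, and 649 had an unadjusted p under 0.05. Repeat levels are shares of repeat counts, and scaled to gene counts instead the split was 264 rising and 93 falling, with the median slope of all repeats at 0.08 in place of -0.00. Within the 6 zygotes above the gap edgeR called 0 of 2296 repeats, with 100 at an unadjusted p under 0.05. Without zygote 10 the rising count was 83 and without zygote 5 it was 76.

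MERVL-int rose by 1.23 ± 0.27 per SD (adjusted p = 0.0042, edgeR quasi-likelihood) over the 10 zygotes and by 1.33 scaled to gene counts. Its slope within the 6 was -0.01 ± 0.81. With an SE that large, the 6 zygotes cannot tell a slope of 0 from that over the 10. Zygotes 5 and 2, with 15883 and 15919 genes, had 13857 and 2268 repeat CPM, so the zygotes with most genes did not all have high MERVL-int. Without zygote 10 the slope was 0.82 (adjusted p = 0.020, edgeR quasi-likelihood). MERVL_2A-int (0.59 ± 0.15) was not called without zygote 10, where it was 0.31 (adjusted p = 0.059, edgeR quasi-likelihood), or without zygote 5, where it was 0.48. MT2_Mm rose by 0.45 ± 0.09, GSAT_MM by 0.73 ± 0.14 (0.90 ± 0.45 within the 6) and IAP1-MM_I-int by 0.26 ± 0.05. Of 120 L1 names 39 rose and 1 fell, and 59 rose and 0 fell with gene-count scaling. With simple repeats left out before scaling, only 26 repeats of any name rose and 52 fell, so at most 26 L1 names rose there.

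Of the 214 falling repeats 198 were simple repeats, short motifs in tandem, and those of pyrimidines fell most often. Of the 109 tested simple repeats made of C and T only, 50 (45.9%) fell and 0 rose, where among all 1212 simple repeats 16.3% fell and 20 rose. Of those of A and G only, 14 of 51 (27.5%) fell. The repeat of CCTTCT had the smallest p, with a slope of -0.33 ± 0.03. The next were the repeat of CTTTT at -0.33 ± 0.04 and the repeat of TCTTCC at -0.29 ± 0.04. Within the 6 zygotes these slopes were -0.14 ± 0.17, -0.45 ± 0.19 and -0.25 ± 0.17. The CCTTCT repeat was 773 to 840 repeat CPM in zygotes 3, 4, 8 and 10 and 490 to 564 in the other 6. The summed share of C and T repeats was 2.75% in zygote 5 and 4.38% in zygote 10. Scaled to gene counts, 32 of the 109 fell and 1 rose, 5 of the 51 of A and G only fell and 3 rose, and 89 of all 1212 fell and 37 rose, with a median slope of 0.0002 over the 1212. 7SLRNA (-0.22 ± 0.04) and GA-rich (-0.22 ± 0.03) also fell.

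**Figure D5:**
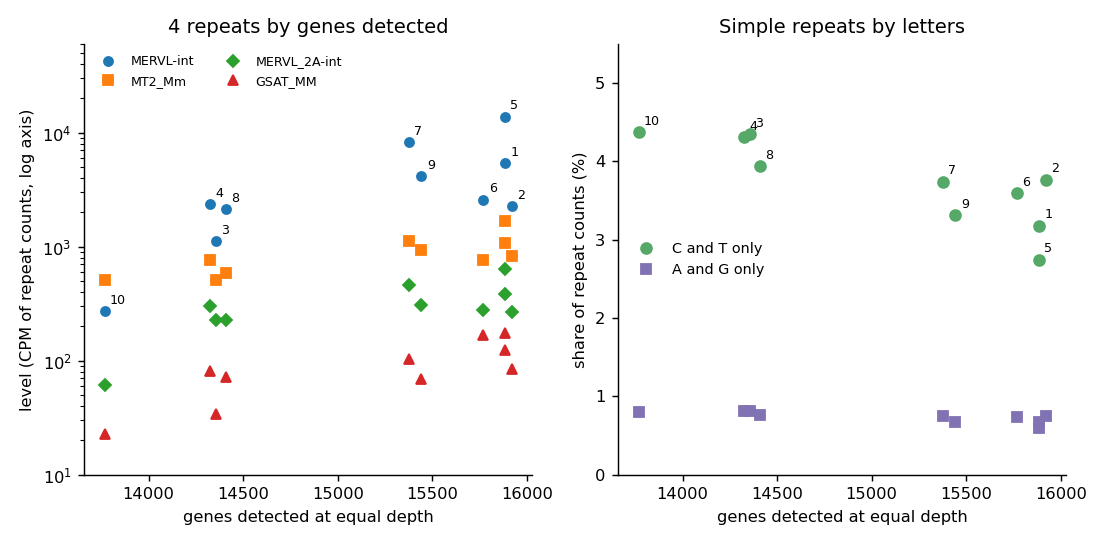
Left, level of MERVL-int, MT2_Mm, MERVL_2A-int and GSAT_MM (y axis, repeat CPM, log axis) against genes detected at equal depth (x axis), 1 point per control zygote, with zygote numbers beside MERVL-int. Right, share of repeat counts (y axis, percent) held by simple repeats of C and T only and of A and G only, where the C and T share runs from 2.75% to 4.38%.

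Measures of whole libraries were related to the number of genes detected only within the 6 zygotes above the gap, since a pooled r would reflect the gap. The 10 measures were total counts, the shares of the 10 and 100 genes with most counts, of mitochondrial, ribosomal protein and histone genes, repeat counts per gene count, the share of simple repeats, and the scores on the first 2 components. Pearson's r ran from -0.40 for the second component to 0.48 for the histone share, and none had an adjusted p under 0.05 (exact permutation test over 720 orders, two-sided, the lowest unadjusted p of r being 0.326 and all adjusted p 0.960). Spearman's rho ran from -0.49 to 0.54. With 6 zygotes, leaving out the 2 farthest leaves too few for r.

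The labels give index numbers and no strips. Cut into runs of 8, the numbers placed zygotes 1 to 4, 5 to 8, and 9 and 10 on 3 different inferred strips. The zygotes were frozen in tube strips of that size, and whether an index strip is a tube strip is not known. Of 10109 genes 2 (0.0198%) differed between strips (edgeR quasi-likelihood test, Benjamini-Hochberg), and 463 had an unadjusted p under 0.05. They were Ust (adjusted p = 7.4e-05), low in zygotes 5 to 8 as described, and Dcp1a, a decapping cofactor (adjusted p = 0.040). Dcp1a was 1354 and 1220 CPM in zygotes 9 and 10 and 730 to 1108 in the other 8. DESeq2's likelihood ratio test called 13.

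The third by p was Mir6236 (adjusted p = 0.088, edgeR quasi-likelihood), whose level moved with SSU-rRNA_Hsa. Its mature sequence is shown because its level was the closest to that repeat among genes averaging 10 CPM or more. The seed, bases 2 to 8, is in capitals:
mmu-miR-6236: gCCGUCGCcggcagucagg
This sequence lies at chr9:110281353-110281371 on the plus strand (RefSeq, GRCm38.p6). The counts are those of the whole annotated gene, chr9:110281287-110281409, in a library of longer RNA, and not of the mature miRNA. Mir6236 was 39.8 and 39.3 CPM in zygotes 9 and 10 and 11.4 to 27.4 in the other 8. With only 2 zygotes on the last strip, that strip and the zygotes themselves cannot be told apart.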

How the data were processed

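Total RNA of single zygotes had been sequenced as paired 100-base reads after SMART-Seq Stranded amplification. Per the paper's methods and the submitters' processing notes, reads were trimmed with fastp 0.21.0 and aligned to GRCm38 with STAR 2.7.3a. The authors deposited raw counts of fragments on the sense strand of 24480 RefSeq genes (featureCounts 1.5.1) and estimated counts from SalmonTE for 18536 repeats, of which 5.21% of the values used were not whole and all were rounded. The 10 control zygotes were taken by label. The Kdm5b row, injected in other samples, was left out as in the study.

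Here, TPM came from counts and the deposited exon lengths. CPM used TMM factors of edgeR 4.0.16 (R 4.3.3). Genes passed filterByExpr (minimum count 10). Spread was tested with edgeR's goodness of fit at the trended dispersion (9 degrees of freedom), and slopes and strips with its quasi-likelihood test, each with Benjamini-Hochberg adjustment at 0.05. The prior count of log2 CPM was 2. The number of genes was rarefied to 12597267 fragments. The correlations planned over all 10 zygotes were run within the 6 above the gap instead, because the numbers fell into separate ranges. Scripts were tested on simulated data, and figures drawn with matplotlib 3.10.9 in Python 3.11.15.

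Named genes were the 20 with the highest TPM, the 12 and 8 with most and least spread, the 5 steepest slopes by p each way, the first 3 by strip, the leading genes of each component and the closest partners by r. Repeats followed the same rule. Members, lists and rules were chosen with earlier results of these data known. P-values measure the spread between these zygotes, for which the labels name no separate litters. Alternatives were DESeq2 1.42.0, other filters and scalings, the raw number of genes, the strip as a covariate, and each zygote left out.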

Additional observations from a re-analysis of the deposited data

Results flagged for a closer look

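Of 117 values tested in the 10 zygotes, 16 had 1 zygote far from the rest, by Dixon's gap test at the 95% level. Chance gives such a gap in about 1 of 20 groups, and values chosen for their spread give it more often.

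Zygote 9 stood apart for 6 of them. It was lowest for Arid5b at 139.6 CPM, Snph at 35.8, Zfp652 at 61.7, Zdhhc20 at 32.5 and Snx27 at 8.29, and highest for Hist1h4d at 48.1. Snph, Zfp652, Zdhhc20 and Snx27 were named as partners of Arid5b or Coro2b, both lowest in zygote 9, so they are not separate evidence.

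Zygote 10 was highest for Ccdc117 at 945 CPM and Basp1 at 38.9. Zygote 5 was highest for estimated repeat counts per gene count, at 0.424, and for MT2_Mm, at 1688 repeat CPM. Zygote 4 was highest on the second component, at 32.4, and for Dpp7, one of its leading genes, at 4.11 CPM. The single values were Rn7s2 at 242 CPM in zygote 1, Pik3r2 at 20.6 in zygote 3, Fam104a at 141 in zygote 6 and Sept14 at 125 in zygote 8. Fam104a was one of the 8 genes with the least spread, so its outlying value is a small difference.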

How the results depend on the processing

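No paired analysis was possible because the zygotes form 1 group. With no filter on low counts, 496 genes (177 shared with the 228) and 247 repeats lay above the trend, and 144 genes by DESeq2's dispersion outliers. With 1 zygote left out these were 166 to 217 genes and 35 to 48 repeats. Genes that rose with the number of genes detected were 264 and those that fell 426 with DESeq2's Wald test, 0 and 1 with the raw number of genes at 10 counts or more, and 0 and 0 within the 6 zygotes above the gap, which was added after seeing the data. With 1 zygote left out they were 47 to 116 and 106 to 215. Repeats that rose were 264 and those that fell 93 with gene-count scaling, 26 and 52 without simple repeats, 0 and 0 within the 6, and 76 to 192 and 171 to 229 with 1 zygote left out. Genes between strips were 13 with DESeq2's likelihood ratio test, 1 at a mean of at least 50 counts and 1 to 3 with 1 zygote left out. The first component held 29.3% of variance over the most variable genes of DESeq2's transformation. Ranked by CPM, 10 of the 20 most abundant genes stayed. Of the library measures, total counts had an adjusted p under 0.05 with the raw number at 10 counts or more, 1 of 10. Slopes that changed sign, and were called under either setting, were MERVL-int (-0.0031) and ORR1A2 (-0.020, both per 241 genes) within the 6, and tRNA-Lys-AAG (0.31, from -0.00) with the strip as a covariate, also added later. The causes of these changes were not tested. Within the 6, zygotes were fewer, the SD of genes detected was 241 in place of 814, and the step between ranges was absent. Which of these differences mattered was not tested. DESeq2's size factors, and the Kdm5b row kept, gave 227 and 230 genes above the trend.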
